A study of Mus musculus with 6 samples.

Results

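Metallothioneins and zinc export were examined through 5 genes, Mt1, Mt2, Mt4, Mtf1 and Slc30a1, taken by symbol from a table of 24354 genes, and all 5 were present. The table comes from RNA sequencing of mouse epidermal cells, sorted by flow cytometry for high α6 integrin (a6 in the labels), a laminin receptor subunit of basal keratinocytes, at embryonic stage E18.5. There were 3 mutant libraries, homozygous for Pik3ca H1047R (genotype label Pik3caH1047R/H1047R), an activating change in the catalytic subunit of phosphoinositide 3-kinase, and 3 wild-type (WT) libraries, all with the strain label C57BL6. The labels name neither the cells that carry the allele, nor how it was made, nor whether the 3 libraries of a group come from separate animals, so p-values measure the spread between these libraries, which may be technical. The members were chosen with their mutant and WT values known, so their own differences are given as a description with no test, and tests were made on other genes.

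Metallothioneins are small, cysteine-rich proteins that bind zinc and copper and release them again. Mt1 and Mt2 are found in most tissues and are induced by zinc, cadmium, glucocorticoids and oxidative stress, whereas Mt4 is known from stratified squamous epithelia, where differentiating cells express it. Mtf1 encodes the transcription factor that senses zinc and binds metal response elements in the promoters of Mt1, Mt2 and Slc30a1. Slc30a1 encodes the zinc exporter of the plasma membrane, known as ZnT1, so a cell that takes up zinc normally raises both its buffer and its export.

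In these libraries the members did not move together. Slc30a1 mRNA was 2.92-fold lower in mutant than in WT libraries by the ratio of mean FPKM (fragments per kilobase of transcript, scaled by a library total), and Mt4 mRNA was 5.69-fold higher. The ratios for Mt1 and Mt2 were 1.12 and 1.23, and that for Mtf1 was 0.919. The groups did not overlap for 3 of the 5 members, Mt2 and Mt4 on the higher side and Slc30a1 on the lower, and they overlapped for Mt1 and Mtf1. Among the 11384 genes that averaged 1 FPKM or more over the 6 libraries, 29.1% had mutant values all above the WT values, 26.9% had them all below, and 56% were one or the other. The members were chosen from this same contrast, so nothing is read from their count.

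The promoter sequences of Mt1, Mt2, Mt4 and Slc30a1 are shown because 3 of these genes are textbook targets of Mtf1 and their mRNAs nevertheless differed in direction or size here. They are RefSeq sequences of build GRCm38.p6, on the plus strand, from 250 bases before to 50 bases after the annotated start, 300 bases each. Capitals mark the core letters of a metal response element, searched as TGCACNC and as TGCGCNC on both strands, with N any base.
Mt1, chr8:94178839-94179138: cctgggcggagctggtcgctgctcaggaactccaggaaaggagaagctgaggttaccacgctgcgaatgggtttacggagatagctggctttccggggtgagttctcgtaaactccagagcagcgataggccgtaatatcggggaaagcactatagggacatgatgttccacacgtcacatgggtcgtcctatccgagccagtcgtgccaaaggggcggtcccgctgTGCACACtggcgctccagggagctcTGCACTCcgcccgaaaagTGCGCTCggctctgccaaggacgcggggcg
Mt2, chr8:94172368-94172667: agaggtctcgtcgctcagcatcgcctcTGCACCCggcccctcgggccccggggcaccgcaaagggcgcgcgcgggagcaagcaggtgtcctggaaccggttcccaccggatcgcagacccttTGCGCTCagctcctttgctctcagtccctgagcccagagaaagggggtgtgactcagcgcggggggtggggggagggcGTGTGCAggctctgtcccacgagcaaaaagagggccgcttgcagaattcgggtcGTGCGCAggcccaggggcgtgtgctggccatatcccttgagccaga
Slc30a1, chr1:191906531-191906830: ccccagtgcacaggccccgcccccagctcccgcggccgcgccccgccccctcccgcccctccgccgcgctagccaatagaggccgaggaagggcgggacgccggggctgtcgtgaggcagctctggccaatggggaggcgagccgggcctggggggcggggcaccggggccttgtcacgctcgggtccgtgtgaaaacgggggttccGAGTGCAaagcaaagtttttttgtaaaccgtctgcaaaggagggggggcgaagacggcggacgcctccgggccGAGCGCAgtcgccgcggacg
Mt4, chr8:94136954-94137253: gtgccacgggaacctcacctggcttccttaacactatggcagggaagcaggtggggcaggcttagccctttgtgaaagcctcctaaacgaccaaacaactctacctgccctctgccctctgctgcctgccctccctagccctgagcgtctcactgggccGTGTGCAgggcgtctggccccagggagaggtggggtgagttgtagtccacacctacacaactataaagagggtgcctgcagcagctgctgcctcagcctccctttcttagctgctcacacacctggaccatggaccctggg
No marked stretch overlaps another.

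The Mt2 window held 4 matches and the Mt1 window held 3, with the nearest upstream match beginning 50 bases before the start in Mt2 and 23 bases before it in Mt1. The Slc30a1 window held 2, of which the upstream one begins 43 bases before the start. The Mt4 window held 1, as did that of Mt3, the remaining metallothionein gene of the mouse, and the Mtf1 window held 0. Of 32851 promoter windows of the same length, 25.7% held at least 1 match, 7.1% at least 2, 2.0% at least 3 and 0.52% at least 4. A match is a description of letters and not a binding site. Other annotated transcript starts of these genes lie outside the reach of such a window, for Mt1 up to 152 bases, for Mt2 up to 242 bases, for Slc30a1 up to 475 bases, for Mt3 up to 139 bases and for Mtf1 up to 129 bases downstream, with Mtf1 also having one at -445, so letters near those starts were searched in part or not at all.

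**Figure D1:**
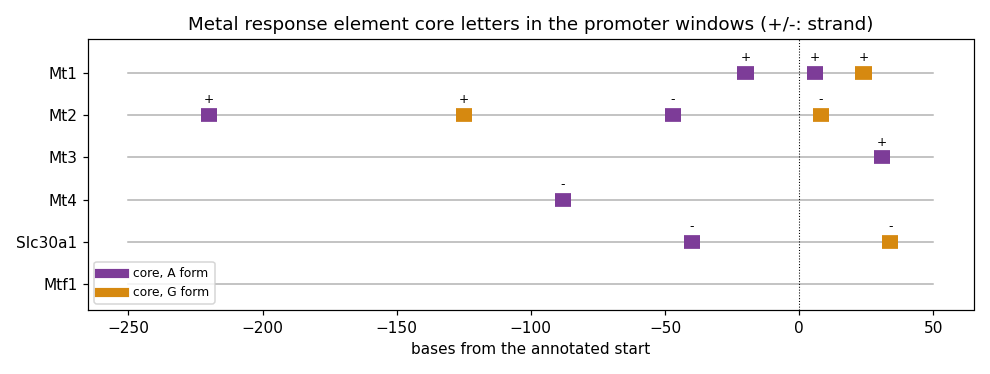
Matches to the metal response element core in promoter windows of 6 genes, by distance in bases from the annotated start (dotted line). Purple and orange blocks are the 2 core forms, and the signs give their strand. Mt2 holds 4 matches, Mt1 3, Slc30a1 2, Mt3 and Mt4 1 each and Mtf1 0.

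The zinc-binding members come first. Mt1 (chromosome 8, 94179089 to 94180327) was at 480.2, 408 and 503 FPKM in mutant replicates 1, 2 and 3, against 452, 429 and 364 FPKM in WT replicates 1, 2 and 3. Mutant replicate 2 lay below 2 of the WT libraries, so the groups overlapped. The means were 464 ± 49.5 FPKM in mutant and 415 ± 45.7 FPKM in WT libraries (SD, n = 3 each), a difference of 0.16 on the log2(FPKM + 1) scale, close to the pooled within-group SD of 0.160 on that scale.

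Mt2 (chromosome 8, 94172618 to 94173567), the neighbour of Mt1 and a copy with the same function, was at 478, 422 and 488 FPKM in mutant libraries, against 409, 399 and 323 FPKM in WT libraries. All mutant values lay above all WT values, but the nearest pair, mutant replicate 2 and WT replicate 1, had widely overlapping deposited intervals of 281 to 563 FPKM in the mutant and 273 to 544 FPKM in the WT library. The means were 463 ± 35.8 FPKM in mutant and 377 ± 46.9 FPKM in WT libraries (SD, n = 3 each), a log2 difference of 0.30. In GENCODE M21, 73.5% of the exon bases of Mt2 are also exon of Gm45774, which runs antisense to it. No label says whether the libraries keep the strand, so reads of that transcript may be included.

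Mt1 and Mt2 kept step with each other inside each group. Mutant replicate 2 was the lowest mutant library for both genes, and WT replicate 3 was the lowest WT library for both. The same libraries had the lowest summed FPKM of their groups, at 538627 and 656761. By the likeness measure given below, Mt2 stood only at place 56 among the genes nearest to Mt1. The part of library scale in this was not tested. The ratio of Mt1 to Mt2 FPKM within a library, which multiplying a library by a single factor cannot change, was 1.004, 0.967 and 1.03 in mutant libraries, against 1.11, 1.08 and 1.13 in WT libraries. The ratios of the groups did not overlap, with means of 1.0003 ± 0.0315 in mutant and 1.10 ± 0.0261 in WT libraries (SD, n = 3 each). The deposited intervals of both genes were wide beside this difference. In mutant replicate 1, for example, they ran from 318 to 642 FPKM for Mt1 and from 316 to 640 FPKM for Mt2. How often other gene pairs differ so was not tested. Together the pair took 0.161 ± 0.0137% of the summed FPKM of a mutant library and 0.109 ± 0.00494% of that of a WT library.

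Mt4 (chromosome 8, 94137204 to 94139031) was at 11.02, 12.5 and 14.2 FPKM in mutant libraries, against 1.41, 3.50 and 1.72 FPKM in WT libraries. Every mutant value was more than 3 times the highest WT value, and the WT values spread most, with an SD of 50.9% of their mean against 12.7% in mutant libraries. The means were 12.6 ± 1.6 FPKM in mutant and 2.21 ± 1.13 FPKM in WT libraries (SD, n = 3 each), a log2 difference of 2.13 that 11 of the 11384 genes exceeded upward. The gene is short and low in WT, and its deposited interval began at 0 in 2 of the 3 WT libraries. The widest WT interval ended at 6.59 FPKM, above the lowest bound of a mutant library at 3.88 FPKM.

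Mt3 (chromosome 8, 94152607 to 94154148), known mainly from brain, was listed at 0 FPKM in all 3 mutant libraries and in WT replicate 1, and at 0.165 and 0.140 FPKM in the other WT libraries. It was thus at or near the floor in every library and was not tested.

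Slc30a1 (chromosome 1, 191894072 to 191913247 in the table), the exporter, had the tightest values of the 5. It was at 4.18, 4.32 and 4.12 FPKM in mutant libraries, against 12.3, 11.96 and 12.6 FPKM in WT libraries. The replicates of either group differed by only a few percent (SD of 2.5% of the mean in mutant and 2.56% in WT libraries), while the groups lay far apart. The means were 4.21 ± 0.105 FPKM in mutant and 12.3 ± 0.314 FPKM in WT libraries (SD, n = 3 each), a log2 difference of -1.35 that 163 of the 11384 genes exceeded downward. Even the deposited intervals of single libraries were apart, ending at 5.87 FPKM at most in mutant libraries and beginning at 8.18 FPKM at least in WT libraries. The locus that the table prints also covers 1700034H15Rik on the other strand, which shares 8.9% of the exon bases of Slc30a1 and was at 0.117 to 0.283 FPKM in mutant and 0.0531 to 0.227 FPKM in WT libraries.

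Mtf1 (chromosome 4, 124802549 to 124850730 in the table), the zinc sensor, was at 2.68, 2.42 and 2.20 FPKM in mutant libraries, against 2.59, 2.497 and 2.85 FPKM in WT libraries. The groups overlapped, with mutant replicate 1 above 2 of the WT libraries. The means were 2.43 ± 0.237 FPKM in mutant and 2.65 ± 0.183 FPKM in WT libraries (SD, n = 3 each), a log2 difference of -0.09 that turned to 0.15 when every library was scaled to the same total FPKM. Of its exon bases 8.1% overlap 1110065P20Rik on the other strand, and that gene was more abundant, at 14.9 to 16.9 FPKM in mutant and 15.6 to 17.5 FPKM in WT libraries, so a part of its reads may have been assigned to Mtf1 or the reverse. No stretch of 50 bases in the transcripts of the 5 members was shared with a transcript of another gene.

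**Figure D2:**
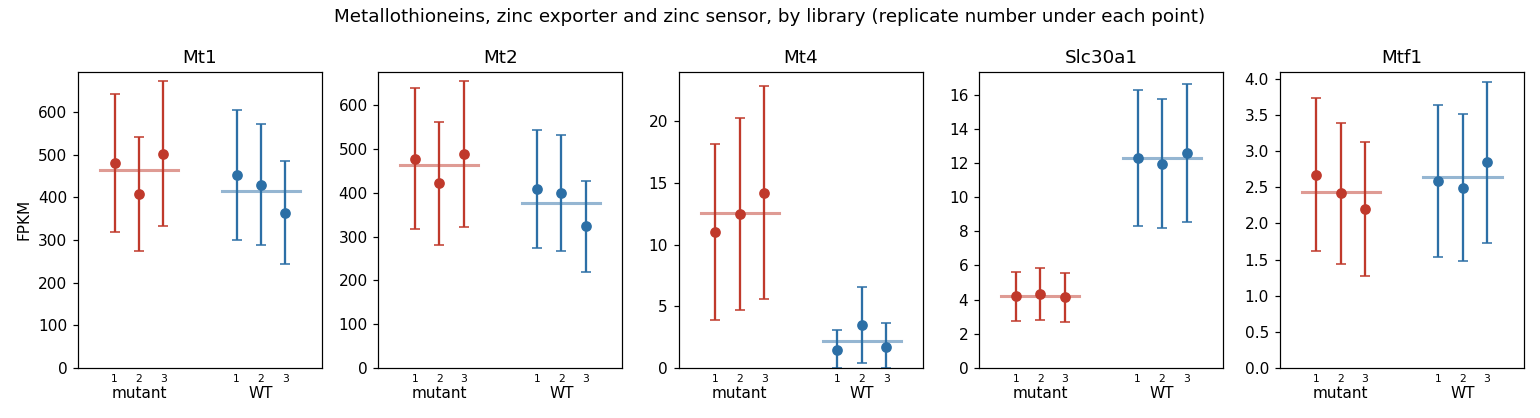
FPKM of the 5 members in each library, mutant left of WT. Points are libraries with their replicate number below, error bars are the intervals deposited with each value, and horizontal lines are group means. Slc30a1 lies at 4.12 to 4.32 FPKM in mutant and 11.96 to 12.6 FPKM in WT libraries without overlap of any interval, Mt4 is higher in mutant libraries, and Mt1 and Mtf1 overlap.

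FPKM divides by transcript length, which allows a rough comparison of levels between the 5 genes. They differ widely in length, with 588 exon bases in Mt2 against 5244 in Slc30a1 and 8907 in Mtf1. Whether the division serves short and long transcripts equally was not tested, and antisense reads may be included for Mt2. In mutant libraries the order was Mt1 and Mt2, then Mt4, Slc30a1 and Mtf1, and in WT libraries it was Mt1 and Mt2, then Slc30a1, Mtf1 and Mt4. The ranges of Mt1 and Mt2 over libraries overlapped in both groups, although within each of the 3 WT libraries Mt1 was the higher, and the ranges of Mtf1 and Mt4 overlapped in WT libraries. Mt1 and Mt2 ranked between 149 and 244 from the top of all genes in every library, about 2 orders of magnitude above Mtf1. Mt4 thus lay above Slc30a1 in all 3 mutant libraries and below it in all 3 WT libraries. The ratio of Slc30a1 to Mtf1 within a library was 1.74 ± 0.160 in mutant and 4.65 ± 0.205 in WT libraries (SD, n = 3 each).

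Scaling affects how the smaller differences read. The summed FPKM of a library was 542210, 538627 and 651769 in the mutant libraries, against 752768, 767148 and 656761 in the WT libraries, and no label says what set the totals. Scaling every library to the same total raised the log2 difference of the median gene by 0.29. It put Mt1 at 0.49 and Mt2 at 0.63, which is 0.19 and 0.33 above the median gene under that scaling. Quantile normalization put them at 0.48 and 0.64 with the median gene at 0.03. Under the same pair of scalings Mt4 was at 2.40 and 2.11 and Slc30a1 at -1.06 and -1.38, so those directions did not depend on the scaling.

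The other zinc transporters were tested, since they were not among the genes chosen. Most Slc30a proteins, though not all, move zinc out of the cytosol, across the plasma membrane or into organelles. Slc39a proteins move it into the cytosol. Of 23 other zinc transporter genes in the table, 15 reached a mean of 1 FPKM, and 3 of them rose and 2 fell in mutant libraries at a limma adjusted p under 0.05, adjusted over all 11384 genes. That is 33.3% of the list, against 46% of all genes called (23.2% higher and 22.8% lower), and the list's median log2 fold change of 0.08 compares with 0.01 for all genes tested. With every library scaled to the same total, 9 were higher and 0 lower.

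With the values as deposited, no other gene of the Slc30a family passed the test, 0 of 5. Log2 fold changes ran from -0.17 for Slc30a4 to 0.17 for Slc30a9 (limma adjusted p = 0.0534 for Slc30a9). At an unadjusted limma p under 0.05, Slc30a9 was the 1 gene of the 5 to pass. With libraries scaled to the same total Slc30a5 and Slc30a9 were called higher, and under quantile normalization Slc30a9 was. The summed FPKM of the 9 Slc30a genes other than Slc30a1 was 46.8, 48.6 and 47.4 in mutant libraries, against 45.8, 46.7 and 43.6 in WT libraries, so the lowest mutant and the highest WT library were close together at 46.8 and 46.7 FPKM. Slc30a1 therefore made up 8.12 ± 0.112% of the summed Slc30a FPKM in mutant and 21.3 ± 1.01% in WT libraries (SD, n = 3 each). Slc30a2, Slc30a3, Slc30a8 and Slc30a10 were under 1 FPKM, with Slc30a8 at 0 in every library.

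With the values as deposited, all 5 calls fell in the Slc39a family of importers, of which 10 were tested. Slc39a8, an importer of zinc and manganese, rose to 12.7 ± 0.361 FPKM in mutant libraries, against 8.52 ± 0.331 FPKM in WT libraries (SD, n = 3 each; log2 fold change 0.53, SE 0.0588, limma adjusted p = 0.000309). Slc39a9 rose to 10.3 ± 0.278 FPKM, against 7.15 ± 0.647 FPKM in WT libraries (limma adjusted p = 0.00165), and Slc39a3 rose to 10.3 ± 0.346 FPKM, against 7.88 ± 0.688 FPKM in WT libraries (limma adjusted p = 0.00552). These 3 calls held under every alternative tried.
Slc39a1, the most abundant importer here, fell to 50.9 ± 2.70 FPKM in mutant libraries, against 68.4 ± 1.91 FPKM in WT libraries (log2 fold change -0.42, SE 0.0613, limma adjusted p = 0.00117), and 21.8% of the 50-base stretches of its transcripts also occur in its pseudogene Slc39a1-ps. Slc39a13, an importer of intracellular vesicles, fell to 6.38 ± 0.565 FPKM, against 9.03 ± 1.31 FPKM in WT libraries (limma adjusted p = 0.0123). Both of these calls ended with libraries set to equal totals (-0.09 with limma adjusted p = 0.35 and -0.15 with limma adjusted p = 0.422). Exons of Slc39a9 and Slc39a13 overlap a gene on the other strand (Erh and Psmc3). Summed over the family, importer mRNA was 196 ± 0.656 FPKM in mutant and 202 ± 4.07 FPKM in WT libraries (SD, n = 3 each), and the highest mutant library, at 197 FPKM, lay next to the lowest WT library, at 198 FPKM.

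**Figure D3:**
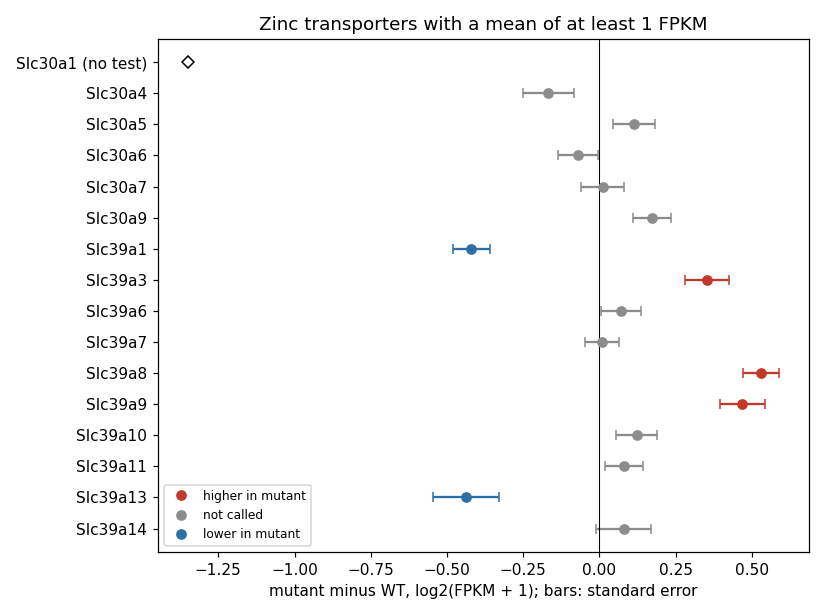
Difference between mutant and WT libraries (horizontal axis, log2(FPKM + 1), bars are standard errors) for Slc30a1 and the 15 other zinc transporter genes that were tested. Red is higher and blue lower in mutant libraries at a limma adjusted p under 0.05, grey was not called, and the open diamond is Slc30a1, which was not tested. Slc30a1 lies at -1.35, and the other genes lie between -0.44 and 0.53.

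Other genes that have been reported in mouse to depend on Mtf1 did not share a direction. The list also holds a gene reported to be repressed by Mtf1, so a shared direction was not required and Mtf1 activity was not tested. Of 8 tested, 3 rose and 3 fell (75% called, against 46% of all genes), with a median log2 fold change of 0.11, and 4 rose and 2 fell with libraries scaled to the same total. Cebpa, a transcription factor of keratinocyte differentiation, rose to 34.7 ± 1.61 FPKM in mutant libraries, against 19.0 ± 0.747 FPKM in WT libraries (SD, n = 3 each; log2 fold change 0.84, SE 0.0607, limma adjusted p = 3.82e-05). Pgf, a growth factor of the VEGF family, rose 1.97-fold to 2.22 ± 0.0849 FPKM, and Gclc, the catalytic subunit of the rate-limiting enzyme of glutathione synthesis, rose 1.40-fold to 12.3 ± 0.743 FPKM (limma adjusted p = 0.001275 and 0.00153).
Csrp1, a LIM-domain protein of the actin cytoskeleton, fell to 197 ± 36.1 FPKM in mutant libraries, against 686 ± 59.5 FPKM in WT libraries (log2 fold change -1.80, SE 0.136, limma adjusted p = 4.37e-05). Ndrg1 fell to 83.8 ± 7.61 FPKM, against 148 ± 12.5 FPKM in WT libraries (limma adjusted p = 0.000318). Sepw1, encoding selenoprotein W, fell to 344 ± 22.2 FPKM, against 416 ± 23.9 FPKM in WT libraries (limma adjusted p = 0.0294), a call that ended, with the sign turned to 0.057 and 0.082, under same-total scaling and quantile normalization, and that was lost without mutant replicate 1 (0.0998), mutant replicate 2 (0.102), WT replicate 1 (0.0983) or WT replicate 2 (0.0923). Slc39a10, a zinc importer that Mtf1 is reported to repress, was at 26.1 ± 1.93 FPKM in mutant and 23.9 ± 0.435 FPKM in WT libraries (limma adjusted p = 0.166).

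Copper and iron genes give the neighbouring metals. Metallothioneins also bind copper, and of 10 copper handling genes tested 2 rose and 1 fell (30% called, against 46% of all genes, median -0.10), or 4 and 1 with libraries scaled to the same total and 1 and 1 without mutant replicate 1 or 2 or WT replicate 2. Slc31a2, a copper transporter of endosomes, rose to 10.4 ± 0.185 FPKM in mutant libraries, against 8.18 ± 0.930 FPKM in WT libraries (limma adjusted p = 0.0134), and Sco1, a copper chaperone of cytochrome oxidase, rose to 3.34 ± 0.148 FPKM, against 2.46 ± 0.242 FPKM in WT libraries (limma adjusted p = 0.0153). The call of Slc31a2 was lost without mutant replicate 2 (limma adjusted p = 0.0532) or WT replicate 2 (0.053), and that of Sco1 without mutant replicate 1 (0.0529). Sod1, the superoxide dismutase that holds both copper and zinc, fell to 158 ± 25.7 FPKM in mutant libraries, against 231 ± 24.4 FPKM in WT libraries (log2 fold change -0.55, SE 0.126, limma adjusted p = 0.00868). The plasma membrane importer Slc31a1 was at 16.9 ± 0.577 FPKM in mutant and 16.7 ± 1.21 FPKM in WT libraries.
Of 17 iron genes tested 3 rose and 3 fell (35.3% called, against 46% of all genes, median -0.03). The counts were 5 and 2 with libraries scaled to the same total, 4 and 0 under quantile normalization, 2 and 1 without mutant replicate 2 and 2 and 5 without WT replicate 3. Slc11a2, an iron importer, rose to 13.3 ± 0.498 FPKM in mutant libraries, against 10.7 ± 0.248 FPKM in WT libraries (limma adjusted p = 0.00471), and Ncoa4, the receptor for ferritin degradation, rose to 27.6 ± 0.995 FPKM, against 22.4 ± 0.434 FPKM in WT libraries (limma adjusted p = 0.00394). The ferritin chains fell: Fth1 to 891 ± 149 FPKM in mutant libraries, against 1296 ± 131 FPKM in WT libraries (limma adjusted p = 0.0154), and Ftl1 to 575 ± 68.6 FPKM, against 831 ± 71.4 FPKM in WT libraries (limma adjusted p = 0.00691). The ferritin calls ended under quantile normalization, that of Fth1 also without mutant replicate 1 (limma adjusted p = 0.0586), mutant replicate 2 (0.0728), WT replicate 1 (0.0581) or WT replicate 2 (0.0671), and 50.9% of the 50-base stretches of Ftl1 transcripts occur in pseudogenes or other genes. Aco1 rose to 18.6 ± 1.06 FPKM, against 16.2 ± 0.533 FPKM in WT libraries (limma adjusted p = 0.039), and Pcbp2, whose exons overlap those of Map3k12, fell to 142 ± 11.1 FPKM, against 175 ± 4.39 FPKM in WT libraries (limma adjusted p = 0.0125). The call of Aco1 ended whichever library was left out (limma adjusted p = 0.0634 to 0.0941), and that of Pcbp2 ended under both scalings and without mutant replicate 2 (limma adjusted p = 0.0568). Of the 50-base stretches of Ncoa4 transcripts, 17.9% occur in Gm6768.

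Mt1 and Mt2 are also induced through the glucocorticoid receptor, and the genes of that response moved in both directions. Of 11 tested, 5 rose and 5 fell (90.9% called, against 46% of all genes, median 0.11), or 6 and 2 with libraries scaled to the same total and 3 and 5 without mutant replicate 1. Ddit4, an inhibitor of mTORC1, rose 2.18-fold to 88.8 ± 16.2 FPKM in mutant libraries, against 40.8 ± 2.18 FPKM in WT libraries (log2 fold change 1.09, SE 0.124, limma adjusted p = 0.000348), and the clock gene Per1 rose to 57.5 ± 7.37 FPKM, against 34.9 ± 2.45 FPKM in WT libraries (limma adjusted p = 0.000947). The phosphatase gene Dusp1 rose 1.51-fold to 175 ± 17.5 FPKM. Errfi1, an inhibitor of the EGF receptor, fell 2.62-fold to 102 ± 11.8 FPKM in mutant libraries, against 268 ± 14.3 FPKM in WT libraries (limma adjusted p = 2.77e-05), and the kinase gene Sgk1 fell to 15.4 ± 0.961 FPKM, against 26.7 ± 1.27 FPKM in WT libraries (limma adjusted p = 0.000103). Klf9 fell to 11.9 ± 0.317 FPKM, against 15.7 ± 0.730 FPKM in WT libraries, a call that ended with libraries scaled to the same total (limma adjusted p = 0.666).

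Among the genes of glutathione and thioredoxin, the other thiol buffers of the cell, 5 of 10 rose and 2 fell (70% called, against 46% of all genes, median 0.19). The counts were 7 and 1 with libraries scaled to the same total and 6 and 1 under quantile normalization, and 1 fell without mutant replicate 1 or 2 or WT replicate 1 or 2. Besides Gclc, its partner subunit Gclm rose to 9.20 ± 0.449 FPKM in mutant libraries, against 6.90 ± 0.318 FPKM in WT libraries (limma adjusted p = 0.00291). The sulfiredoxin gene Srxn1 rose 1.72-fold to 3.16 ± 0.249 FPKM (limma adjusted p = 0.00337), and the glutathione reductase gene Gsr rose to 19.0 ± 0.667 FPKM, against 16.1 ± 0.439 FPKM in WT libraries (limma adjusted p = 0.0125). The peroxidase gene Gpx1 fell to 298 ± 48.1 FPKM, against 463 ± 40.7 FPKM in WT libraries (limma adjusted p = 0.00434), and the thioredoxin gene Txn1 fell to 119 ± 10.5 FPKM, against 151 ± 12.5 FPKM in WT libraries (limma adjusted p = 0.0162). The call of Txn1 ended under both scalings and without mutant replicate 1 (limma adjusted p = 0.0573), mutant replicate 2 (0.0621), WT replicate 1 (0.0597) or WT replicate 2 (0.0638).

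**Figure D4:**
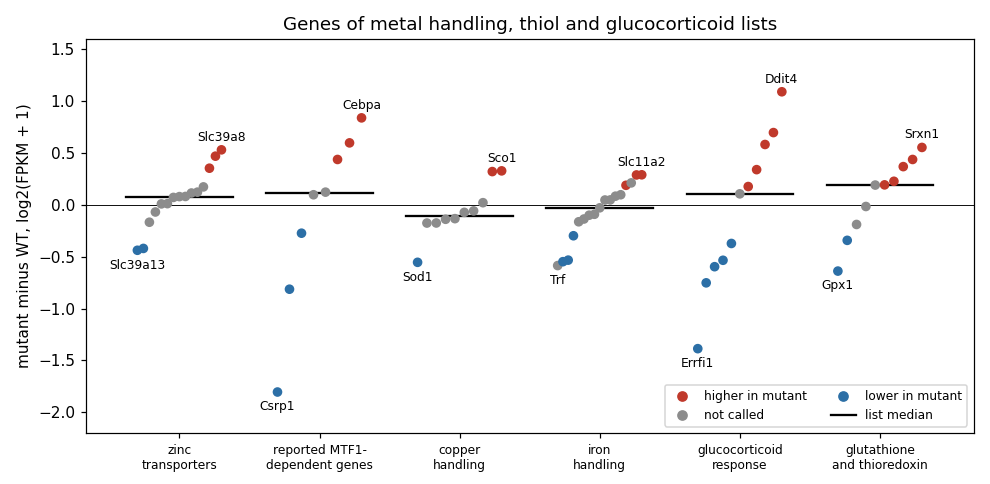
Difference between mutant and WT libraries (vertical axis, log2(FPKM + 1)) of each tested gene in 6 lists, with the lowest and highest gene of each list named and the list median as a black line. Red is higher and blue lower in mutant libraries at a limma adjusted p under 0.05, and grey was not called. Medians lie between -0.10 for copper handling and 0.19 for glutathione and thioredoxin.

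Mt4, Mt3, Mt2 and Mt1 lie in that order within a stretch of chromosome 8, and the genes beside them were examined too. Within 150 kb of the cluster 7 other genes of the table were examined, of which 4 were tested, 2 rose and 1 fell (against 46% called among all genes). The others were Mt3, Mir138-2 and Slc12a3, the last 2 listed at 0 FPKM in every library. Ogfod1, an oxygenase gene that starts at -141.9 kb from the start of Mt1, rose to 6.84 ± 0.114 FPKM in mutant libraries, against 4.4 ± 0.0468 FPKM in WT libraries (log2 fold change 0.54, SE 0.0606, limma adjusted p = 0.000328). The nearest tested gene on the far side, the nucleoporin gene Nup93, rose to 29.7 ± 0.770 FPKM, against 25.5 ± 0.843 FPKM in WT libraries (log2 fold change 0.21, limma adjusted p = 0.015), a call lost without WT replicate 2 (limma adjusted p = 0.0541). Nudt21 fell to 84.6 ± 8.87 FPKM, against 103 ± 9.52 FPKM in WT libraries (limma adjusted p = 0.0426), and lost that call under both scalings and without mutant replicate 1 (limma adjusted p = 0.132), mutant replicate 2 (0.126), WT replicate 1 (0.137) or WT replicate 2 (0.115). Bbs2, a gene of the ciliary BBSome complex, did not pass (limma adjusted p = 0.327). The tested genes near Mt4 thus had differences between -0.29 and 0.54, against 2.13 for Mt4.

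**Figure D5:**
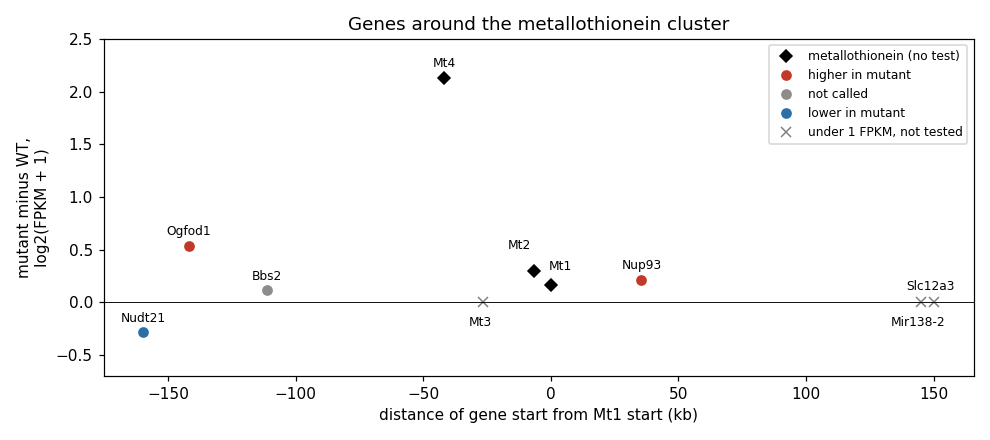
Difference between mutant and WT libraries (vertical axis, log2(FPKM + 1)) of genes around the metallothionein cluster, by distance of the gene start from that of Mt1 in kb. Black diamonds are members, with no test, red and blue circles were called higher and lower in mutant libraries, grey circles were not called and crosses were under 1 FPKM. Mt4 at 2.13 stands above its neighbours, which lie between -0.29 and 0.54.

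Mt4 is a gene of differentiating keratinocytes, and markers of the spinous layer were measured beside it. Of 9 such markers tested, 6 rose and 0 fell (against 23.2% higher and 22.8% lower among all genes), with a median log2 fold change of 1.01. Krtdap (0.14), Sbsn (-0.16) and Calml3 (0.41) did not pass, and 1 marker was called lower without WT replicate 2. Their summed FPKM was 11779 to 14402 in mutant and 3848 to 4620 in WT libraries, and none of the 10 in the table was at 0. Krt1 was at 6464, 5562 and 5164 FPKM in mutant libraries, against 1569, 1288 and 1609 FPKM in WT libraries. Within the groups the order of the Krt1 values differed from that of Mt4. WT replicate 2 had the most Mt4 and the least Krt1 of the WT libraries, and mutant replicate 3 likewise of the mutant libraries. The other markers were divided in the mutant libraries. Krt10, Dsg1a, Dsc1, Ptgs1 and Sbsn fell from replicate 1 to 3 as Krt1 did. Krtdap (979, 1008 and 1066 FPKM) and Calml3 (19.3, 21.4 and 24.7 FPKM) rose in the order of Mt4, and Tmem45a did neither. Neither Krtdap nor Calml3 was highest in WT replicate 2. The deposited Mt4 intervals of a group all overlapped, so its order within a group is not resolved. Their highest lower and lowest upper bounds were 5.57 and 18.2 FPKM in mutant and 0.408 and 3.09 FPKM in WT libraries. The part of these markers in the result for Mt4 was not tested, and in sorted bulk RNA more cells of a type and more RNA per cell cannot be told apart.

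Markers of the sorted cell type were abundant. Krt5, a basal keratin, was at 11977 ± 919 FPKM in mutant and 12028 ± 155 FPKM in WT libraries, and of 13 basal markers 9 were lower and 1 higher in mutant libraries (7 and 3 at equal totals, against 22.8% lower and 23.2% higher among all genes), with summed FPKM of 24200 to 27619 in mutant and 26917 to 27233 in WT libraries. Markers of other cells were scarcer. Erythroid markers summed to 90.2 to 157 FPKM in mutant and 231 to 313 FPKM in WT libraries (3 of 6 tested lower), and fibroblast markers to 376 to 406 FPKM in mutant and 450 to 586 FPKM in WT libraries (1 of 7 lower). Melanocyte markers summed to 11.4 to 15.5 FPKM in mutant and 16.2 to 22.2 FPKM in WT libraries (2 of 3 lower), immune markers to 7.25 to 7.61 FPKM in mutant and 9.03 to 11.4 FPKM in WT libraries (2 of 4 lower, Cd207 at 0 in every library), and endothelial markers to 0.753 to 1.64 FPKM in mutant and 1.20 to 2.60 FPKM in WT libraries (0 tested). The first 4 of these sums were lower in every mutant library than in any WT library, as Slc30a1 was, and the endothelial sums overlapped. Single fibroblast markers were divided. The groups were apart for Dcn, Fbln1 and Lum, but overlapped for Col1a1, Col1a2, Col3a1, Twist2, Pdgfra and Pdgfrb. Col1a1, for example, was at 47.1 FPKM in mutant replicate 1 and 31.9 FPKM in WT replicate 2. The log2 difference of Dcn, the most abundant of these markers, turned to 0.021 under quantile normalization. With libraries set to equal totals, 0 fibroblast, melanocyte or immune markers and 3 erythroid markers were called lower. Leaving out single libraries moved the counts of lower markers to between 1 (without mutant replicate 2 or WT replicate 2) and 5 (without WT replicate 1) for erythroid genes. It gave 1 for melanocyte genes without mutant replicate 1 or 2 or WT replicate 1 or 3, 1 for immune genes without any library but WT replicate 3, and 0 for fibroblast genes without mutant replicate 1 or 2 or WT replicate 1 or 2. The part of these cells in the result for Slc30a1 was not tested.

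The genes whose values were most like those of each member were found by the root mean square difference between their log2(FPKM + 1) values over the 6 libraries, after subtracting each gene's mean, among 8153 named genes (8154 for Mtf1) that averaged 5 FPKM or more. For Slc30a1 they were F2rl1 (0.0486), Tmcc3 (0.0495) and Cldn1 (0.0532). Cldn1, for example, was at 71.7, 77.0 and 79.9 FPKM in mutant libraries, against 201, 189 and 197 FPKM in WT libraries. For Mt4 the nearest were Smtnl2 (0.376), Gt(ROSA)26Sor (0.378) and Gas1 (0.398), several times farther from it than the nearest genes were from the other members. For Mt2 they were Rassf7 (0.0245), Kcnk1 (0.0378) and Enkd1 (0.0400), for Mt1 they were Polr2l (0.0389), Sec11c (0.0406) and Guk1 (0.0422), and for Mtf1 they were Ppard (0.0197), Btbd9 (0.0215) and Acsf3 (0.0256). Mt2 stood at place 56 among the genes nearest to Mt1, and Mt1 at place 46 among those nearest to Mt2.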

How the data were processed

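Per the file headers, the deposited values are FPKM, each with a lower bound, an upper bound and a status. The authors' FPKM came from TopHat and Cufflinks on build mm9, per the submitters' processing notes; they name no version, library scaling or strand. Loci fitted GRCm38 instead: of 23315 symbols in GENCODE M21, 98.9% overlapped the gene of that name. Positions are printed as GRCm38 with 1 added to each start. Hnrnpd, whose estimate failed in 1 library, was left out.

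The other tests used limma 3.58.1 in R 4.3.3 on log2(FPKM + 1) of 6 libraries without covariates, for the 11384 genes that averaged 1 FPKM or more, with an empirical Bayes variance prior that follows the mean, two-sided, Benjamini-Hochberg adjusted over all of them, threshold 0.05. The procedure was tested on simulated data. All 5 members passed the filter. The log2 scale understates changes of low genes; folds are ratios of mean FPKM. Total read numbers are not given in the files; the most frequent ratio of values under 1 FPKM to WT replicate 1 gave relative depths of 1.24, 1.24 and 1.11 in mutant and 1, 0.979 and 1.16 in WT libraries, under the deposited scaling.

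Members and lists were chosen with earlier results of these data known. Named genes were the members, Mt3, genes within 150 kb of the cluster (1 of them is not reported here), up to 6 called members of each list by smallest p (then the most abundant, to at least 3), and the 3 genes most like each member; genes given beside them as uncalled, and Krt5, were chosen after their values were seen. Promoter sequences were RefSeq's, found for the 5 members and Mt3. Tables and figures used Python 3.11.15, numpy 2.4.6, pandas 2.3.3 and matplotlib 3.10.9. Alternatives were other pseudocounts, filters, scalings, a flat variance prior, a block on the replicate number and leaving out each library.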

Additional observations from a re-analysis of the deposited data

How the results depend on the processing

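Of the 14 alternatives, equal FPKM totals in all libraries moved the counts of calls most: 5374 genes were then called higher and 841 lower, against 2641 and 2591 with the values as deposited, and 9 zinc transporters were called higher and 0 lower, against 3 and 2. It is a single factor per library, which raised the median gene by 0.29 on the log2 scale. Under it Nudt21 turned to 0.042, Pcbp2 to 0.031 and Sepw1 to 0.057, and under quantile normalization Dcn turned to 0.021 and Sepw1 to 0.082. Mt1, Mt2, Mt4 and Slc30a1 kept their sign in all 14 alternatives and Mtf1 in 13. Leaving out each library gave log2 differences of 0.067 to 0.248 for Mt1, 0.192 to 0.365 for Mt2, 1.95 to 2.40 for Mt4, -0.139 to -0.04 for Mtf1 and -1.37 to -1.33 for Slc30a1. The size for Mt4 ranged from 1.29 with a pseudocount of 5 to 2.55 with 0.1, and that for Slc30a1 from -0.908 to -1.52. Of 62 named genes called, 39 kept the call in all 14 alternatives. With the replicate number as a block, 1889 genes were called higher and 1909 lower, and the zinc transporter counts were 3 and 2. Under the block 2 iron genes were called higher and 0 lower, 3 glucocorticoid genes higher and 5 lower, and 3 glutathione and thioredoxin genes higher and 1 lower, with the calls of Gsr (limma adjusted p = 0.0621) and Nup93 (0.0697) among those lost. Whether the numbers pair the libraries is not settled. Deviations of same-numbered libraries correlated at 0.127, 0.122 and -0.007 across genes, and those of differently numbered libraries at -0.157 to 0.062. WT replicate 3 correlated best with mutant replicate 1. Mt4 was low in WT, where its deposited intervals begin at 0 in 2 libraries, and Mt3 was at or near 0 throughout, so small differences in either could not be seen.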
